A study of Mus musculus with 4 samples.

Results

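Described here are 9 transcription factors that act in the macrophage and dendritic cell lineages, chosen by name from the 22700 gene rows of the deposited tables: Maf, Spi1, Cebpa, Cebpb, Id2, Id3, Batf3, Zbtb46 and Tcf4. Of these, 8 stood in the tables under their own symbol, and Spi1, the gene of PU.1, stood under its older symbol Sfpi1, which RefSeq lists as a synonym. All 9 reached a level of 20 normalised reads in at least 1 library, the minimum used for tests across genes, which 13642 rows reached.

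Marrow was taken from male mice aged 12 weeks, either mice with type 2 diabetes (db/db, labelled BKS.Cg-m+/+leprdb/J) or control littermates (db/+, labelled BKS.Cg-m+/+leprdb+/J). The db allele is a mutation of the leptin receptor gene, carried by both genotypes, and both strain labels also name the m allele. The cells grew for 7 to 8 days with either M-CSF at 10 ng/ml, the growth factor that drives macrophage differentiation, or GM-CSF at 20 ng/ml, which yields macrophage-like cells with dendritic features. Ribosomal RNA was removed before paired-end sequencing. Genotype and culture type were crossed in 4 groups of 1 library each. Where values are given in pairs, db/+ comes first and db/db second. The labels do not say whether a library came from 1 animal or a pool, and RNA of a whole culture does not separate fewer cells of a type from less RNA per cell.

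PU.1, an ETS-family factor, and C/EBP alpha, a basic leucine zipper factor, together establish the myeloid programme, and C/EBP beta takes over in mature and activated macrophages. Maf, called c-Maf at the protein level, is a leucine zipper factor of resident and anti-inflammatory macrophages. Tcf4 encodes E2-2, a basic helix-loop-helix E protein that binds the E-box (CANNTG) and is known as the master regulator of plasmacytoid dendritic cells. Id2 and Id3 encode helix-loop-helix proteins with no DNA-binding region, which pair with E proteins and keep them from DNA. Batf3 is needed for the cross-presenting dendritic cells of type 1, and Zbtb46 marks the classical dendritic lineage.

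Depth was 25603389 and 27590722 reads for M-CSF and 27216116 and 28622706 reads for GM-CSF. Levels are read counts scaled by 1 factor per library, called normalised reads below. Log2 folds were taken on log2(normalised reads + 5), which understates the change of low genes, and 95% intervals of ratios are exact intervals on read pairs that cover counting error only. The GM-CSF libraries of the opposite genotypes differed hardly more than counting allows, if read pairs are the unit counted. Over 4134 genes of 200 to 1000 reads, the squared deviation between them was 1.02 times that of counting read pairs. In M-CSF it was 4.41 times over 3936 such genes. With single reads as the unit both multiples would be larger. All 14 macrophage markers listed for the label check were measured, and 9 of them were at least 2-fold lower in GM-CSF in both genotypes, with a median log2 fold of -1.87 in db/+ and -1.57 in db/db. Of all genes, 15.7% in db/+ and 15.8% in db/db were that much lower. In the limma fit described below 10 of the markers fell and 2 rose, beside 27.3% and 29.8% of all genes. The summed level of the 14 markers in GM-CSF was still 0.771 times that in M-CSF in db/+ and 0.822 times in db/db. That is because Lyz2, which rose, made up 626680.0 of 775927 and 621787 of 775820.0 normalised reads in GM-CSF. Lepr, the mutated gene, was at 6.7 and 21.8 normalised reads in M-CSF and at 49.4 and 60.3 in GM-CSF, and a total over the gene does not show a splice mutation.

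The clearest contrast lay between the growth factors. Maf, Id3 and Tcf4 were lower in GM-CSF, Cebpb, Id2 and Zbtb46 were higher, and Spi1 and Cebpa were nearly level, while Batf3 was higher by less than 2-fold. In db/+, 3 of the 9 were at least 2-fold higher in GM-CSF, where 12% of all 13642 genes were, and 3 were at least 2-fold lower, where 15.7% of all genes were. In db/db the counts were also 3 and 3, against 11.3% and 15.8% of all genes. The members' median absolute log2 fold was 1.94 in db/+ and 1.91 in db/db, against 0.48 and 0.47 over all genes. The members were chosen with earlier results of these data known, so these contrasts with all genes are a description only. The GM-CSF and M-CSF comparisons of the 2 genotypes share no library. Their GM-CSF libraries differed hardly more than counting read pairs allows, however, so likeness between the comparisons is no replicate check.

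**Figure D1:**
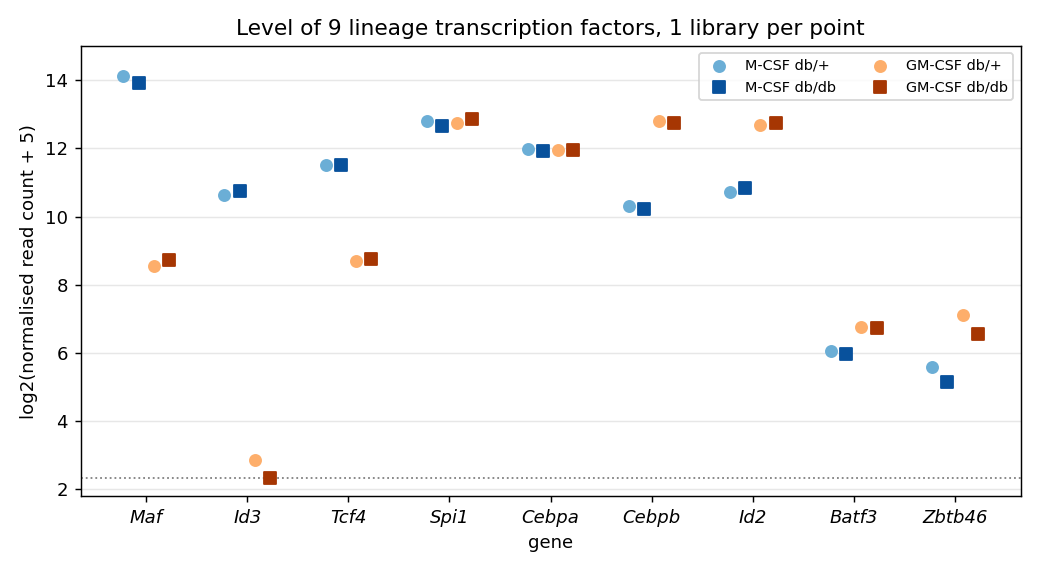
Level of each of the 9 factors on log2(normalised reads + 5), with 1 point per library (circles db/+, squares db/db; blue M-CSF, orange GM-CSF); the dotted line is a level of 0. Maf, Id3 and Tcf4 lie higher in both M-CSF libraries, Cebpb, Id2, Batf3 and Zbtb46 higher in both GM-CSF libraries, and Spi1 and Cebpa overlap.

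As a test of culture type over both genotypes, limma was fitted to all 4 libraries with genotype as a covariate. That leaves 1 residual degree of freedom, the difference between the db/db over db/+ folds of M-CSF and GM-CSF. The p-values of this fit therefore hold no spread between replicates. Of the 9 factors, 4 were higher in GM-CSF at an adjusted p under 0.05 (29.8% of all genes were) and 3 were lower (27.3% of all genes). With no filter on low values the folds stayed the same, but 0 genes and 0 factors passed (8129 genes had an unadjusted p under 0.05), the smallest adjusted p of a factor being 0.0628. Since the GM-CSF libraries differed by little more than counting, culture type was also fitted with their mean as 1 sample. That fit drops genotype and leaves 1 sample in GM-CSF, so its calls are not given. The scaling also matters, because the totals of normalised reads were larger in GM-CSF. Rescaling the libraries to equal totals moved the median log2 fold of all genes by -0.32 in db/+ and -0.35 in db/db, and changed the split of called genes from 4062 higher and 3725 lower to 2291 higher and 6352 lower.

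Maf had the highest deposited level of the set in M-CSF and fell in GM-CSF. M-CSF cultures had 17915 and 15406 normalised reads of Maf, and GM-CSF cultures 369 and 421. Both M-CSF libraries stood far above both GM-CSF libraries. The level was 48.6-fold lower in GM-CSF in db/+ (interval 41.7 to 57.2) and 36.6-fold lower in db/db (31.9 to 42.5), with a limma log2 fold of -5.38 (SE 0.10, adjusted p = 9.78e-15). Of the 8241 exon bases of Maf, 440 overlap an antisense gene, whose reads cannot be told apart without strand.

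The small Maf factors, which lack an activation domain, did not fall with Maf under the deposited scaling. Mafg and Mafk had limma log2 folds of 0.07 (adjusted p = 0.550) and 0.10 (adjusted p = 0.503). Maff rose, from 40.9 and 53.1 in M-CSF to 203 and 242 in GM-CSF. Mafa, a large Maf factor, also rose, but was at no more than 20.4 in any library (limma log2 fold 1.58, adjusted p = 0.0242). With equal totals Mafg passed as lower, at -0.27 (limma adjusted p = 0.0311).

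Id3 was close to absent from the GM-CSF cultures. Its level in M-CSF was 1565 and 1725 normalised reads, from 1645 and 1980 reads. GM-CSF left a level of 2.3 in db/+, from 2 reads, and of 0 in db/db, where 3 read pairs would be 6.45 normalised reads. The M-CSF and GM-CSF libraries did not come near each other. In db/db the interval put the level at least 217-fold lower in GM-CSF, and a floor of 3 read pairs would put it 267-fold lower. In db/+ the interval of the ratio of GM-CSF to M-CSF was 3.63e-05 to 0.00801. The limma log2 fold of -8.09 (SE 0.27, adjusted p = 3.40e-12) depends on the pseudocount. Over 15 alternatives, which include edgeR and DESeq2 on recovered reads, the log2 fold ran from -10.89 to -6.30.

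Id2, its paralog, moved the other way. It was at 1697 and 1809.8 normalised reads in M-CSF and at 6519.7 and 6818 in GM-CSF. Both GM-CSF libraries lay above both M-CSF libraries. The ratio of GM-CSF to M-CSF was 3.84 in db/+ (interval 3.56 to 4.15) and 3.77 in db/db (3.51 to 4.05), with a limma log2 fold of 1.92 (SE 0.08, adjusted p = 6.42e-11).

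Divided by exon length, so that genes can be compared, Id2 made up 34.8% and Id3 61.3% of the Id family's level in M-CSF in db/+, and 33.0% and 60.1% in db/db. In GM-CSF Id2 held 97.9% of the family in db/+ and 98.1% in db/db. The remaining relatives were low: Id1 was at 86.6 and 165 in M-CSF and at 65.1 and 61.3 in GM-CSF, and Id4 at 10.5 and 49.7 in M-CSF and at 0 in both GM-CSF libraries. Both passed as lower in GM-CSF, Id1 with a limma log2 fold of -0.87 (adjusted p = 0.0184) and Id4 with -2.54 (adjusted p = 0.00290). Per exon length Id3 thus held the larger part of the 4 genes in M-CSF and Id2 in GM-CSF. The M-CSF part rests on the lengths, which come from another annotation than the counts. Not divided by length, Id2 lay above Id3 in M-CSF, at 1697 and 1809.8 against 1565 and 1725 normalised reads.

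The start regions of this paralog pair, from 250 bases before to 50 bases after the transcript start in RefSeq (build GRCm38.p6, of which the promoter table holds 6 of the 9 factors), are shown 5′ to 3′ because the genes went in opposite directions, with E-boxes in capitals. That of Id2 lies at chr12:25096043-25096342 on the minus strand and that of Id3 at chr4:136143572-136143871 on the plus strand.
Id2: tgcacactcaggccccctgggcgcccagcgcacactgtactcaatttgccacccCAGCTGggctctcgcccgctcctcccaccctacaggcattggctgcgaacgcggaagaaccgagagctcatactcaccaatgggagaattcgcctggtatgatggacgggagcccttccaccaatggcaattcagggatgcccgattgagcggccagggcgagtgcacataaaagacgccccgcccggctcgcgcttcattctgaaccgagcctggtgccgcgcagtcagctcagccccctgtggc
Id3: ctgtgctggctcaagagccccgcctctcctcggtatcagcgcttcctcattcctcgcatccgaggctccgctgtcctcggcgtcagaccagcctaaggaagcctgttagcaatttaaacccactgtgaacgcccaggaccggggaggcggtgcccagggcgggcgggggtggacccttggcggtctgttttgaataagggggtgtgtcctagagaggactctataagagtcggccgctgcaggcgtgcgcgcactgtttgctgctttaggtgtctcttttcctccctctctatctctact
The Id2 window holds 1 E-box, whose first base lies 196 bases before the start, and the Id3 window holds 0, while 72.3% of the 32851 promoters in the table hold at least 1. Neither window holds the PU.1 core GAGGAAGT, the ETS core GGAAGT, the C/EBP motif TTGCNNAA, the Maf core TGCTGA, the AP-1 motif TGANTCA or the STAT motif TTCNNNGAA on either strand. The GAGGAAGT motif contains GGAAGT, and the shares of all promoters that hold these motifs are 3.20%, 23.8%, 10.8%, 19.5%, 7.81% and 8.30% in that order. Their GC contents were 63.3% and 60.0%, against a median of 52.7% over all promoters.

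Tcf4, the E protein that Id2 and Id3 can pair with, fell in GM-CSF. It was at 2891.5 and 2927 normalised reads in M-CSF and at 412 and 430.3 in GM-CSF, with no overlap between culture types. The level was 7.03-fold lower in db/+ (interval 6.04 to 8.26) and 6.80-fold lower in db/db (5.87 to 7.91), and the limma log2 fold was -2.77 (SE 0.10, adjusted p = 8.48e-12). The other E proteins, which are broadly expressed, fell by less: Tcf3, the gene of E2A, had a limma log2 fold of -0.36 (SE 0.11, adjusted p = 0.0121) and Tcf12, the gene of HEB, one of -0.22 (SE 0.09, adjusted p = 0.0401). Per exon length Tcf4 held 24.0% and 25.02% of the E protein level in M-CSF and 5.25% and 5.51% in GM-CSF.

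Spi1 was held at a similar level in both growth factors. It was at 7069 and 6424 normalised reads in M-CSF and at 6889 and 7353 in GM-CSF. The M-CSF and GM-CSF libraries overlapped. The ratio of GM-CSF to M-CSF was 0.974 in db/+ (interval 0.929 to 1.02) and 1.14 in db/db (1.09 to 1.199), with a limma log2 fold of 0.08 (SE 0.09, adjusted p = 0.468). With equal totals the log2 fold was -0.26 and passed (limma adjusted p = 0.0178), so its direction depends on the scaling.

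The relatives of Spi1 were lower in GM-CSF. Spic, which drives red pulp and iron-handling macrophages, was at 203 and 211 in M-CSF and at 1.1 and 3.2 in GM-CSF, with a limma log2 fold of -4.90 (SE 0.37). Spib, a factor of B cells and plasmacytoid dendritic cells, was at 69.4 and 80.2 in M-CSF and at 29.2 and 35.5 in GM-CSF (limma log2 fold -1.10, SE 0.32). Both passed, and Spi1 held between 95.5% and 99.7% of the level of these 3 genes per exon length in every library.

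Cebpa was the most even member. It was at 4031 and 3876 normalised reads in M-CSF and at 3951 and 3939.6 in GM-CSF. An antisense gene overlaps 51 of its 2636 exon bases. All 4 values lay within a narrow range and the culture types overlapped. The ratio of GM-CSF to M-CSF was 0.980 in db/+ (interval 0.919 to 1.04) and 1.02 in db/db (0.955 to 1.082), and limma gave a log2 fold of -0.00 (SE 0.08, adjusted p = 0.982). With equal totals it was -0.34 and passed (limma adjusted p = 0.00287), so this evenness holds for the deposited scaling.

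Cebpb rose in GM-CSF. It was at 1273 and 1185 normalised reads in M-CSF and at 7152 and 6785 in GM-CSF. Both GM-CSF libraries lay above both M-CSF libraries. The ratio was 5.62 in db/+ (interval 5.17 to 6.12) and 5.73 in db/db (5.27 to 6.23), with a limma log2 fold of 2.50 (SE 0.08, adjusted p = 4.07e-12). Per exon length Cebpb passed from 20.5% and 19.7% of the 7 genes listed as C/EBP family in M-CSF to 53.7% and 52.7% in GM-CSF. Cebpa passed from 37.1% and 36.7% to 16.9% and 17.5%. The list includes Cebpz, at 4.1% and 4.1% in M-CSF and at 1.9% and 1.8% in GM-CSF.

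Of the 7 genes listed as C/EBP family, 3 rose in GM-CSF (Cebpb, Ddit3 and Cebpg), 1 fell (Cebpd) and 3 did not pass (Cebpa, Cebpe and Cebpz). Ddit3, the stress-induced C/EBP partner also called CHOP, was at 554 and 507 in M-CSF and at 1341 and 1324 in GM-CSF. Cebpd, an acute-phase factor, went the other way, from 1344 and 1374 to 611 and 537. Cebpg had a limma log2 fold of 0.29 (SE 0.09, adjusted p = 0.00910), which was -0.05 and did not pass with equal totals (limma adjusted p = 0.627).

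The start regions of Cebpa and Cebpb are shown for the same reason, a family pair of which 1 gene moved. That of Cebpa lies at chr7:35119043-35119342 and that of Cebpb at chr2:167688665-167688964, both on the plus strand of GRCm38.p6, with E-boxes in capitals.
Cebpa: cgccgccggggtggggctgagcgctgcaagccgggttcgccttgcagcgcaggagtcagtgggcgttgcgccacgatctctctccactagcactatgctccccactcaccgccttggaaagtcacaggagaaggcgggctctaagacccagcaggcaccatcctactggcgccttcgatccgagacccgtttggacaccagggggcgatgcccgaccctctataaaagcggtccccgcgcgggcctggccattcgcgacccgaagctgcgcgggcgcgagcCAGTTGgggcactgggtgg
Cebpb: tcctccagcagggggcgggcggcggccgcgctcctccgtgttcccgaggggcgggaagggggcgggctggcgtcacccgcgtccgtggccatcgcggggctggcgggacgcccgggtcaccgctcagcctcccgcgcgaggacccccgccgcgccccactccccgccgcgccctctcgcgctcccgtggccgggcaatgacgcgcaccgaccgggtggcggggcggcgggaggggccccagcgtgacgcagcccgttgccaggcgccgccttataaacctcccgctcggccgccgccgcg
Cebpa has 1 E-box, after the start, and none of the other 6 motifs, and Cebpb has none of the 7. GC content was 67.3% for Cebpa and 80.7% for Cebpb, with 29 and 50 CpG dinucleotides in 300 bases.

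Zbtb46 and Batf3, the dendritic factors of the set, had few reads in every library, 35 to 120 for Zbtb46 and 65 to 95 for Batf3. Zbtb46 was at 42.8 and 30.5 normalised reads in M-CSF, from 45 and 35 reads, and at 135 and 88.2 in GM-CSF. Both GM-CSF libraries lay above both M-CSF libraries. The ratio was 3.14 in db/+ (interval 1.94 to 5.51) and 2.89 in db/db (1.65 to 5.59), with a limma log2 fold of 1.47 (SE 0.29, adjusted p = 5.57e-04). The log2 fold was 1.18 without the db/+ GM-CSF library and 1.25 without the db/db M-CSF library. Such fits drop genotype and leave 1 library in a culture type, so whether the call holds without a library cannot be shown.

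Batf3 was at 61.8 and 57.5 normalised reads in M-CSF and at 103 and 102 in GM-CSF. Here too the culture types did not overlap, but the difference stayed under 2-fold and DESeq2 on the recovered reads did not call it. The ratio was 1.67 in db/+ (interval 1.06 to 2.75) and 1.78 in db/db (1.10 to 2.83), and the limma log2 fold of 0.74 (SE 0.27) passed with an adjusted p of 0.0294. With equal totals it was 0.42 and did not pass (limma adjusted p = 0.188). Over 14 alternatives the log2 fold ran from 0.42 to 0.79. Fits without a library drop genotype and leave 1 library in a culture type, so whether the call holds in them cannot be shown.

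The start region of Batf3 in the same table holds 2 E-boxes, 1 ETS core and 1 STAT motif, which overlaps the ETS core. For Zbtb46 the table's start lies 68874 bases inside the gene's span, so that window describes an internal start only. It holds 6 E-boxes, 1 Maf core and 1 AP-1 motif, with a GC content of 50.7%.

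Relatives of Batf3 split by direction. Batf, a factor of T cells and of activated myeloid cells, rose from 113 and 124 in M-CSF to 313 and 308 in GM-CSF (limma log2 fold 1.35, SE 0.19). Batf2, an interferon-induced relative, fell from 169 and 107 to 68.4 and 60.3 (limma log2 fold -1.01, SE 0.26).

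**Figure D2:**
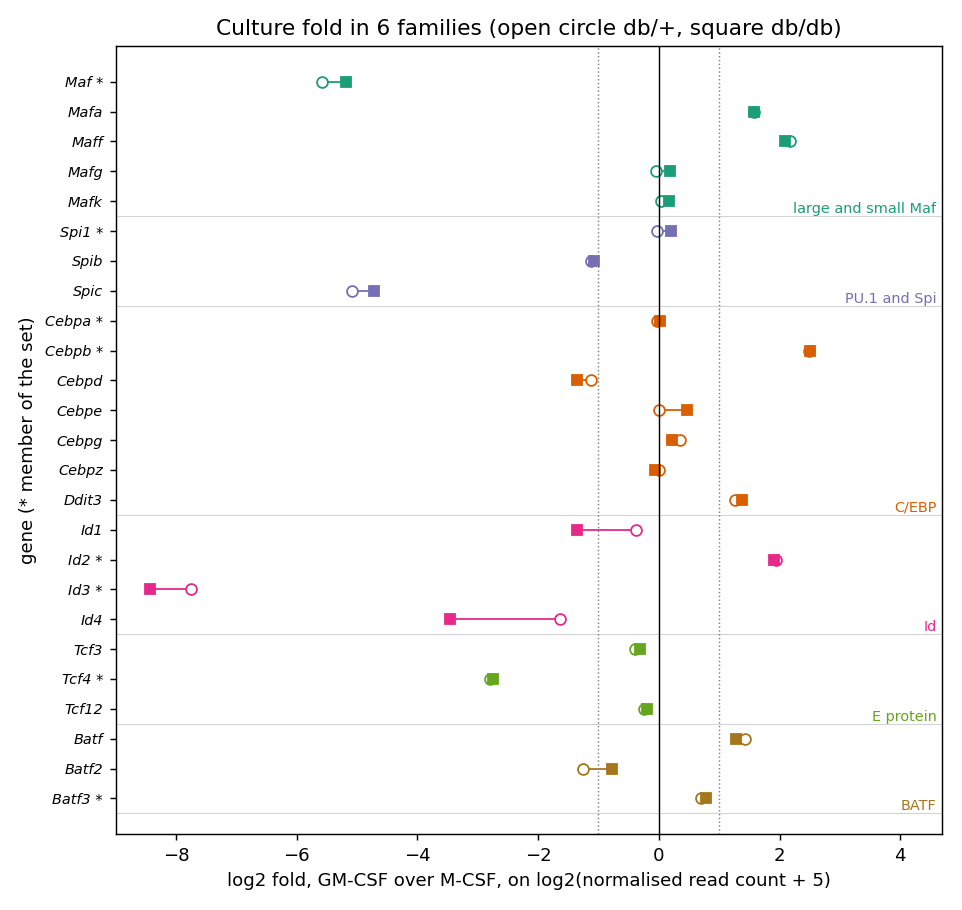
Log2 fold of GM-CSF over M-CSF on log2(normalised reads + 5) for genes of 6 families that reached the minimum, with open circles for db/+ and squares for db/db; dotted lines mark 2-fold and an asterisk a member of the set. Id2 and Id3 lie on opposite sides at 1.94 and -7.75 in db/+, Cebpb lies at 2.49 beside Cebpa at -0.03, and Maf lies at -5.58, far from Mafg at -0.04.

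Divided by exon length, the order of the 9 levels differed between growth factors. In both M-CSF libraries Spi1 was highest, followed by Maf, Cebpa, Id3, Cebpb, Id2, Tcf4, Batf3 and Zbtb46. Spi1 was at 3475 and 3159 normalised reads per kb in db/+ and db/db, and Maf at 2174 and 1869. In both GM-CSF libraries the order was Cebpb, Spi1, Id2, Cebpa, Batf3, Maf, Tcf4, Zbtb46 and Id3, with Cebpb at 4756 and 4511 per kb and Spi1 at 3387 and 3615. Neighbours in these orders were not tested against each other, since exon lengths come from another annotation than the counts.

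The other question of the design was whether db/db cells differed from db/+ cells within a culture type. Among the 9 factors, 0 were at least 2-fold apart in M-CSF, where 5.83% of all genes were, and 0 in GM-CSF, where 1.06% were. In the limma fit over both cultures 0 of the 9 passed for genotype, at an adjusted or at an unadjusted p under 0.05, beside 1 of 13642 genes (0.00733%). On the recovered reads edgeR and DESeq2 also called 0 of the 9, with 0 at an unadjusted p under 0.05.

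In M-CSF the counting interval excluded a ratio of 1 for 3 factors, as it did for 34.2% of all genes. Maf was lower in the db/db than in the db/+ library, with a ratio of 0.860 (interval 0.835 to 0.885), and Spi1 likewise with 0.909 (0.868 to 0.951). Id3 was higher, with a ratio of 1.10 (1.005 to 1.21). The remaining 6 had ratios from 0.713 for Zbtb46, whose interval ran from 0.353 to 1.40, to 1.07 for Id2 (0.974 to 1.17).

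In GM-CSF the interval excluded 1 for Spi1 at 1.07 (1.02 to 1.121), Cebpb at 0.949 (0.903 to 0.997) and Zbtb46 at 0.655 (0.430 to 0.991), against 6.71% of all genes. Spi1 thus lay below 1 in M-CSF and above 1 in GM-CSF. Zbtb46 was lower in db/db in both cultures, at 30.5 against 42.8 and at 88.2 against 135. Id3 had too few GM-CSF reads for a ratio. With 1 library per group, whether these differences exceed the spread between mice cannot be shown.

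**Figure D3:**
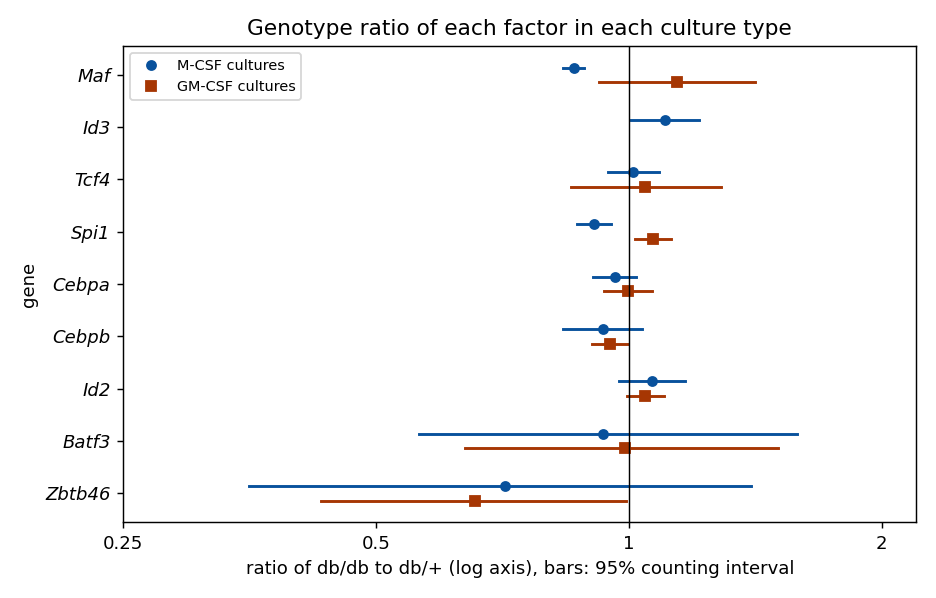
Ratio of db/db to db/+ for each factor on a log axis, with points for the ratio in M-CSF (circles) and GM-CSF (squares) and bars for 95% counting intervals; Id3 in GM-CSF is left out. All ratios lie between 0.655 (Zbtb46 in GM-CSF) and 1.14 (Maf in GM-CSF).

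The db/db M-CSF culture also held more stromal RNA. All 22 fibroblast and stromal markers were measured and 21 reached the minimum. In M-CSF 18 of the 21 were 2-fold or more above db/+ in db/db. Of all genes, 5.83% were that far apart in either direction. The sum of all 22 markers went from 41092.5 normalised reads to 114309, 2.78 times as much. In GM-CSF the sums were 1086 and 1129.6, with 2 and 5 of the 22 at 0. In the same M-CSF pair Tcf4 had a ratio of 1.01, Id2 of 1.07 and Id3 of 1.10. Among their relatives, Id4 was at 10.5 and 49.7 and Id1 at 86.6 and 165. Between culture types the stromal sum was 37.8-fold lower in GM-CSF in db/+ and 101-fold lower in db/db, and all 21 genes fell, as Maf, Id3 and Tcf4 did. The part of stromal cells in the levels of the 9 factors was not tested.

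Markers of other cell types differed between the growth factors, with genes going both ways in most lists. Their limma counts stand beside 29.8% of all genes higher and 27.3% lower in GM-CSF. At least 2-fold lower were 15.7% of all genes in db/+ and 15.8% in db/db. Neutrophil markers (11 of 12 measured) summed to 21813 and 22171 in M-CSF and to 24116 and 25596 in GM-CSF, but 10 of them were at least 2-fold lower in GM-CSF in both genotypes, and Mmp8 alone made up for them, at 1283 and 1272 in M-CSF against 22757 and 24136. Eosinophil markers (7 of 7 measured) summed to 356 and 369 in M-CSF and to 5073 and 5382 in GM-CSF, a rise carried by Ear2, at 3707 and 4028, and Siglecf, at 1305.5 and 1308, in GM-CSF. Against it, Prg2, a granule protein, fell from 124 and 128 to 2.3 and 4.3, and the granule gene Epx was at no more than 11.3 in any library. In all 3 rose and 2 fell of the 5 that reached the minimum. Mast cell and basophil markers (10 of 10) summed to 324 and 332 and to 2638 and 2585, of which Kit alone made up 2614 and 2540.0 in GM-CSF. The other markers called, Cpa3, Mcpt8 and Hdc, all fell (limma log2 folds -2.23, -3.94 and -2.69), and Tpsab1 was at 0 in both GM-CSF libraries. Osteoclast markers summed to 2418 and 2405 in M-CSF and to 21455 and 21427 in GM-CSF, where 4 of the 6 that reached the minimum rose and 2 fell. Endothelial markers summed to 1024 and 1087 and to 10984.7 and 10655, but only 4 of 10 reached the minimum. Of these 3 rose: Vwf from 255 and 261 to 8578 and 8417, Kdr from 176 and 110 to 2105 and 1953, and Cdh5 from 20.9 and 15.7 to 202 and 180. Vwf alone made up most of the GM-CSF sums. Pecam1 fell from 513 and 659.6 to 69.5 and 75.3. Erythroid markers fell (6 of 7, with 0 rising), as did 5 of 7 B cell markers with 1 rising, and of 4 T and NK cell markers 2 rose and 1 fell. Among the erythroid genes Hba-a1 and Hba-a2 had identical values, as had Hbb-b1 and Hbb-b2, so they are not separate signals. The part of these cells in the folds of the 9 factors was not tested.

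**Figure D4:**
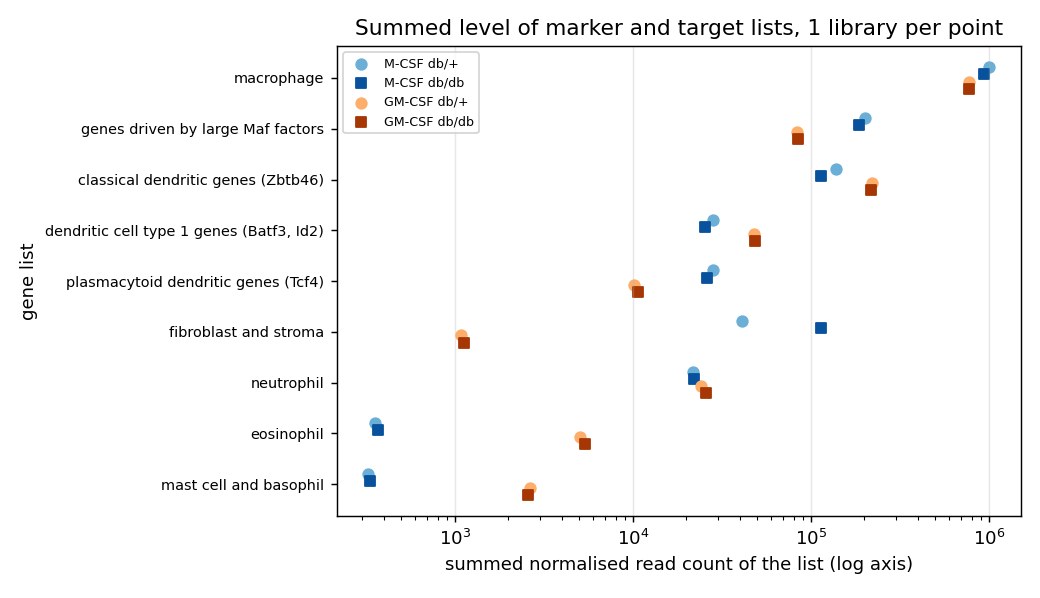
Summed normalised reads of 9 gene lists on a log axis, with 1 point per library (circles db/+, squares db/db; blue M-CSF, orange GM-CSF). The stromal list spans 1086 to 114309, and the plasmacytoid dendritic and Maf lists lie lower in both GM-CSF libraries.

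Genes known to be driven by large Maf factors were mostly lower in GM-CSF. The counts of this and the following lists stand beside 29.8% of all genes higher and 27.3% lower, or 2291 higher and 6352 lower of 13642 with equal totals. Of 12, all measured, 9 fell and 2 rose in the limma fit, and their median log2 fold was -2.64 in db/+ and -2.37 in db/db, against 0.03 and 0.01 over all genes. The complement genes C1qb and C1qc were at 68771 and 60399 and at 37914 and 34743 in M-CSF, and at 11940.3 and 12607 and at 5638 and 6238 in GM-CSF. Axl, a receptor for apoptotic cells, rose from 12493 and 9555 to 25502 and 25338. Mertk did not pass, at 2344 and 2236 in M-CSF and 2123 and 2205 in GM-CSF, though with equal totals it was lower (log2 fold -0.42, limma adjusted p = 0.00119).

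Genes known as PU.1 targets went both ways. Of 16, all measured, 8 rose, 5 fell and 3 did not pass, with a median log2 fold of 0.39 in db/+ and 0.42 in db/db. With equal totals 8 rose and 7 fell. The 5 of 16 that fell are near the 27.3% of all genes that did. Csf1r, the M-CSF receptor, fell from 120627 and 105159 to 33549.6 and 33103, and Adgre1, which encodes F4/80 and stands under the older symbol Emr1, from 98662 and 97863 to 11230.3 and 11449.7. Itgb2, the common beta chain of the leukocyte integrins, rose from 13982 and 12823 to 82102 and 82619, and Lyz2, lysozyme, from 250024 and 242719 to 626680.0 and 621787.

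Genes known to depend on C/EBP factors did not follow Cebpb as a group. Of 15 measured, 13 reached the minimum, of which 4 rose and 8 fell, with medians of -3.01 and -3.83. Arg1, arginase of alternatively activated macrophages, rose from 52.3 and 30.5 to 14049 and 14108, while Csf3r, the G-CSF receptor, fell from 3901 and 3571 to 514 and 473. Ltf, a neutrophil granule gene, fell from 1843 and 1960.5 to 13.5 and 15.1. The list holds 5 genes that are also on the neutrophil list, and all of these fell.

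Dendritic genes were mixed. Of the 12 genes of type 1 dendritic cells, 11 reached the minimum, of which 5 rose and 4 fell, or 4 and 5 with equal totals. Irf8, the partner of Batf3 in that lineage, fell from 6141 and 5149 to 3529.6 and 3672, while Naaa, a lysosomal amidase, rose from 1981 and 1535 to 21388 and 21724. Wdfy4, needed for cross-presentation, did not pass, at 5756 and 5049 in M-CSF and 6203 and 5922 in GM-CSF. Of lineage receptors named after their values were seen, Clec9a was at 24.7 and 48.8 in M-CSF and 640.4 and 667 in GM-CSF, and Xcr1, which did not pass (limma adjusted p = 0.185), at 60.9 and 47.0 and at 32.5 and 37.7.

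Of the 17 classical dendritic genes, 10 rose and 5 fell, with a median log2 fold of 0.31 in db/+ and 0.71 in db/db. With equal totals 7 rose and 6 fell, H2-Aa no longer passing (limma adjusted p = 0.170). Itgax, which encodes CD11c, rose from 775 and 921 to 56042 and 56259. H2-Aa and Cd74, of the MHC class II pathway, were at 16174 and 12333 and at 49679.8 and 37748 in M-CSF, and at 20006 and 20153 and at 76588 and 75149 in GM-CSF. Flt3, the receptor of dendritic progenitors, also named after its values were seen, was at 53.3 and 76.7 in M-CSF and at 0 in both GM-CSF libraries.

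The plasmacytoid dendritic list moved with Tcf4. Of 14 measured genes 13 reached the minimum, of which 9 fell and 1 rose in GM-CSF, with medians of -1.12 and -1.19. Tlr7 and Tlr9, the nucleic acid sensors of these cells, fell from 14925 and 15212 to 7177 and 7781 and from 3666 and 3091 to 607 and 625. Irf7, which drives interferon alpha, fell from 5663 and 4305 to 166 and 220.5. The gene that rose was Cox6a2, from 20.0 and 16.5 to 273 and 230.2. Macrophages also express Tlr7, Tlr9, Irf7 and Bst2, so the list does not count plasmacytoid cells, and its most specific gene, Siglech, was at 342 and 299 in M-CSF and at 6.7 and 9.7 in GM-CSF.

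Of 34 other regulators of myeloid lineages, 9 rose, 14 fell and 11 did not pass. The 9 of 34 that rose are near the 29.8% of all genes that did, so this count shows nothing about these regulators. The most abundant were Zeb2, which fell from 19461 and 18744 to 14345 and 14463, and Notch2, which fell from 21982 and 17085 to 11560.1 and 11537. Etv3 fell as well, with a limma log2 fold of -0.48 (SE 0.09), and Rbpj, the DNA-binding partner of Notch, did not pass (-0.04, limma adjusted p = 0.680), but fell with equal totals (-0.38, limma adjusted p = 0.00165). Of genes named after their values were seen, Irf4, the IRF of type 2 dendritic cells, rose from 1014 and 884 to 3139 and 3021, and Bhlhe40, a basic helix-loop-helix repressor, rose from 180 and 228 to 8255 and 7859.8.

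The genes whose pattern over the 4 libraries was most like each factor's were found by the Euclidean distance between centred log2 levels, among 10161 genes that reached 200 normalised reads. For Maf the nearest was Cd300lh, at a distance of 0.13, and for Tcf4 they were Vcam1 and Clec4a3, at 0.07 and 0.07. Mpo and Col6a3 were nearest to Id3, at 0.26 and 0.76. For Cebpb they were Pira6 and Abcg1 (0.08 and 0.08), for Id2 Cercam and Gla (0.03 and 0.04), and for Zbtb46 Clec2i and Sgsm3 (0.24 and 0.31). The even factors had closer neighbours, Sulf2 and Tmem120a for Spi1 (0.0078 and 0.014) and Atf6 and Stk4 for Cebpa (0.0093 and 0.012), as had Batf3 with Nr2c2ap and Nucb1 (0.021 and 0.023). With 4 libraries such likeness is a description only.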

How the data were processed

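The members and gene lists were chosen with earlier results of these data known. Each deposited value is a signal, a gene's read count divided by 1 factor per library and rounded to 1 decimal. The file names call the factors TMM, and TopHat 1.2.0 and edgeR are named, with builds mm8 and mm9 in no stated role, per the submitters' processing notes. The sources used here name no counting tool, annotation or strand. Whole reads were recovered by dividing by the value of 1 read: within a tolerance of 0.1, 100% of low values and at least 99.9% of all values came out whole. Even counts slightly outnumbered odd ones at low counts, so mates may have been counted separately and intervals used read pairs. The precision is that of 12801694 to 14311353 read pairs per library. 38 symbols stood in more than 1 row, and no column of another sample was present (0).

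The design allowed for counts or a normalised unit; the files hold the latter, so limma 3.58.1 (lmFit, eBayes with trend, R 4.3.3) on log2(value + 5) of 13642 genes at 20 or more was the main test, with Benjamini-Hochberg adjusted p-values, two-sided, at 0.05. Its 1 residual degree of freedom is moderated by a prior of 12.87. With 1 library per group, the residual is the difference between the db/db over db/+ folds of M-CSF and GM-CSF. The p-values rest on that difference over these libraries only and hold no spread between replicates. Whether a genotype fold differs between the cultures cannot be tested, because that difference is the error of the fit. edgeR 4.0.16 and DESeq2 1.42.0 on recovered reads were alternatives, edgeR calling 7746 genes for culture type and 103 for genotype. DESeq2 called fewer, 5375 for culture type and 2 for genotype, where the main fit called 7787 and 1. The limma and edgeR fits were also run on simulated counts without a genotype effect. There the 2 libraries of a culture type are replicates, which they are not here, so that run does not check these p-values. All 9 factors are named. Of each list the 4 most abundant genes and relatives of a factor could be named, and others are marked as named after their values were seen. A few genes that this rule names are not reported here. Exon lengths are unions over GENCODE M21 basic transcripts. Promoters are from RefSeq GRCm38.p6.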

Additional observations from a re-analysis of the deposited data

Results flagged for a closer look

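Spi1 was lower in db/db than in db/+ in M-CSF, with a ratio of 0.909, and higher in GM-CSF, with a ratio of 1.07. It was picked out because both counting intervals excluded 1 in opposite directions. The difference between the cultures was not tested, since each group has 1 library.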

How the results depend on the processing

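The labels give no replicate numbers, so genotype is the only block. It is a term of the fit for culture type, and without it 4068 genes were higher and 3672 lower. The counts of factors at least 2-fold apart kept their values under 6 alternatives (pseudocounts of 1 and 20, no filter, a minimum of 200, equal totals, DESeq2 size factors), except that with a minimum of 200 Zbtb46 was not tested, leaving 2 higher, and with a pseudocount of 1 Id3 made 1 factor lower in db/db GM-CSF, on levels of 2.3 and 0. For culture type, with no filter limma called 0 genes higher and 0 lower (8129 at an unadjusted p under 0.05), and 0 factors in either direction, their smallest adjusted p being 0.0628 and their folds the same. With a minimum of 200, 2 factors were higher, Batf3 and Zbtb46 not being tested. With equal totals 2291 genes were higher and 6352 lower, and 5 factors were lower, Spi1 (-0.26) and Cebpa joining. Without a variance trend 2859 genes were higher and 2946 lower. DESeq2 on recovered reads called 2714 higher and 2661 lower, with 6 factors passing, Batf3 being lost. Leaving out each library in turn gave 2576 to 3948 genes higher and 2413 to 3312 lower, with 2 to 4 factors higher and 3 lower throughout, and Cebpa between -0.031 (without the db/db M-CSF library) and 0.026 (without the db/+ M-CSF library). Counting the GM-CSF libraries as 1 sample, an alternative chosen after seeing the data, gave 2600 higher and 2388 lower. For genotype, limma called 2 genes higher with a pseudocount of 1 and 3 with a minimum of 200. It called 0 with a pseudocount of 20, no filter, equal totals, no variance trend or no culture factor, and 0 to 0 when each library was left out, which confounds genotype with culture. edgeR called 101 higher and 2 lower, and DESeq2 2 higher. No fit called a factor for genotype. Not dividing by length kept the order of 30 to 32 of 36 pairs of factors. The depth limits Zbtb46 and Batf3, whose counts were 35 to 120 reads. The causes were not tested.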
